A study of Homo sapiens with 6 samples.

Results

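The genes described here are 10 RNA sensors and innate signalling adaptors of DU145 cells, chosen by symbol from the 19727 genes of the table: RIGI (listed there under its older symbol DDX58), IFIH1, DHX58, TLR3, MAVS, TRIM25, TBK1, IKBKE, IRF3 and IRF7. DU145 cells are an established line from a human prostate cancer. Stable DU145 lines made with lentivirus-circCSPP1, a vector for overexpression of the circular RNA circCSPP1, were compared with lines made with the control lentivirus-NC, with 3 libraries of poly(A) RNA in each group. Both groups therefore carried a lentivirus and had been selected with puromycin, and DU145 cells without virus were not analysed here. Nothing in the labels says that the 3 libraries of a group came from separate cultures, so the p-values measure the spread between these libraries, which may be technical.

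Cells detect foreign RNA with 2 sets of receptors. In the cytosol, RIG-I (RIGI) and MDA5 (IFIH1) bind double-stranded RNA and pass the signal through their CARD domains to MAVS, an adaptor on the mitochondrial surface, while LGP2 (DHX58), the family member without CARD domains, tunes both. TLR3 reads double-stranded RNA in endosomes and signals through the adaptor TICAM1. The ubiquitin ligase TRIM25 attaches ubiquitin chains in the RIG-I pathway, the kinases TBK1 and IKBKE (IKKε) act after MAVS and TICAM1, and they phosphorylate IRF3 and IRF7, the transcription factors that switch on interferon genes. Several of these genes, among them those of the cytosolic receptors, IRF7 and TRIM25, are known to be induced by interferon themselves.

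Promoter sequences were read to show which members carry an interferon response element. The interferon-stimulated response element was searched as a pair of GAAA copies separated by any 2 bases, on both strands, in the RefSeq promoter windows (GRCh38.p14), which run from 250 bases before to 50 bases after the start of a gene. Windows were given for 7 of the 10 members, and 2 of them, IFIH1 and TLR3, held a match. Among all 35116 windows, 3.57% did. The matches are printed in capitals, on the strand of the gene:
IFIH1, chr2:162318821-162318850, minus strand: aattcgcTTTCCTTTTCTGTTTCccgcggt
IFIH1, chr2:162318686-162318715, minus strand: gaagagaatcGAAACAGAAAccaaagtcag
TLR3, chr4:186069142-186069171, plus strand: caagctttacTTTCACTTTCgagagtgccg
The first IFIH1 window holds 2 matches on the opposite strand that share 4 bases, and the second holds 1 on the strand of the gene. The single match of TLR3 spans the start of the gene. The windows of RIGI, MAVS, TRIM25, TBK1 and IKBKE held no match, which says nothing about the factors that act there.

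Values were given by the authors as FPKM (fragments scaled by library depth and by the length of the transcript), which is per length, so levels can be compared between genes. Tests were made with limma on log2(FPKM + 1) for the 12322 genes that averaged 1 FPKM or more, with Benjamini-Hochberg adjustment over all of them, and log2 fold changes are lentivirus-circCSPP1 minus lentivirus-NC on this scale. They understate the change of low genes. Of the 10 members 9 were tested, and TLR3 was below the filter. CSPP1, from which the overexpressed RNA derives, measured 9.11 to 10.08 FPKM with lentivirus-NC and 14.47 to 22.76 with lentivirus-circCSPP1. Its log2 fold change was 0.94 (adjusted p = 0.016). Without lentivirus-NC replicate 1, 2 or 3 or lentivirus-circCSPP1 replicate 3 its adjusted p was 0.067 to 0.075. A gene-level value from poly(A) RNA does not separate linear, circular and vector RNA. By qRT-PCR, the study reported that its vectors changed circCSPP1 and not CSPP1 mRNA. Which form raised the value here was not tested. The depth read from the low FPKM values was 28900000 to 36600000 fragments per library, with overlapping groups. Of 7 epithelial markers, KRT5 stayed at 0.85 FPKM or less and the others were present in all libraries, but 5 were lower in every lentivirus-circCSPP1 library and KRT7 was higher. KRT8, for one, measured 1085.19 to 1137.92 FPKM with lentivirus-NC and 379.88 to 456.19 with lentivirus-circCSPP1, and the summed level of the 7 ranged from 3889 to 4051 and from 3044 to 4033 FPKM. The part of this shift in the results was not tested. Of 5 luminal prostate markers, 2 (KLK2 and KLK3) were listed at 0 in all libraries, and of 5 leukocyte markers PTPRC reached at most 0.08 FPKM and CD68, a lysosomal protein, 50.35 FPKM. The lentivirus-circCSPP1 libraries differed among themselves with transcript GC content, replicate 1 most: over 12305 genes, the departure of a library from the other two of its group had a Spearman correlation with GC content of 0.78, -0.73 and -0.48 for replicates 1, 2 and 3, and of -0.06 to 0.10 for the lentivirus-NC libraries. Compared directly, replicates 2 and 3 gave -0.45. Results that changed without replicate 1 are therefore also given without it, which leaves the difference between replicates 2 and 3 in place.

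TRIM25 was the only member called at an adjusted p of 0.05 with all 6 libraries, and it rose. It was the most abundant of the 10 in both groups, and its level was about 1.77 times as high in lentivirus-circCSPP1, a difference many times the spread within either group. IRF7 and MAVS had higher values and IRF3, IKBKE and DHX58 lower values in all 3 lentivirus-circCSPP1 libraries. None of these passed an adjusted p of 0.05. RIGI, IFIH1, TLR3 and TBK1 overlapped between the groups. Thus 1 of the 9 tested members was called, which is 11.1%, and over all tested genes 11.4% were called at an adjusted p of 0.05 (4.69% higher and 6.66% lower). The values of the groups did not overlap for 6 members, 3 higher and 3 lower, while 36.4% of all tested genes had groups that did not overlap (16.0% higher and 20.5% lower). An unadjusted p under 0.05 was reached by 5 members in limma, and by 28.2% of all tested genes. None of the 9 passed the pair of thresholds used in the study, which are 0.01 for the unadjusted p and 1.5 for the size of the log2 fold change, and 0.195% of all tested genes did. The median log2 fold change of the 9 members was -0.24, beside -0.028 for all tested genes. Without lentivirus-circCSPP1 replicate 1 these medians were -0.13 and 0.0097.

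**Figure D1:**
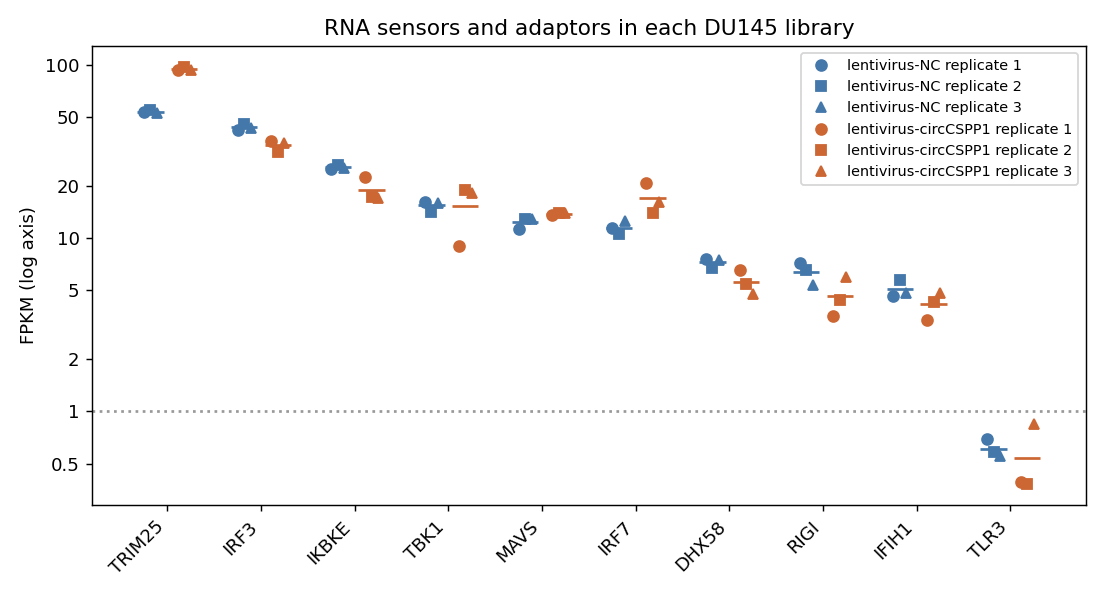
FPKM (log axis) of the 10 genes in each DU145 library, ordered by their mean in lentivirus-NC; circles, squares and triangles are replicates 1, 2 and 3, horizontal bars are group means and the dotted line marks the filter of 1 FPKM. TRIM25 sits at 52.75 to 54.98 in lentivirus-NC and at 93.6 to 97.92 in lentivirus-circCSPP1, and TBK1 has 1 lentivirus-circCSPP1 library at 9.01.

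RIGI, the gene of RIG-I, the receptor for short double-stranded RNA with a 5′ triphosphate, is found at 32455705 to 32526324 of chromosome 9 (GRCh38, as are all gene positions here), on the minus strand. It measured 7.21, 6.58 and 5.4 FPKM with lentivirus-NC and 3.58, 4.42 and 5.99 with lentivirus-circCSPP1, where values are in the order of replicates 1, 2 and 3 here and for the other members. The groups overlapped, since lentivirus-circCSPP1 replicate 3 was above lentivirus-NC replicate 3. In limma, the log2 fold change was -0.40 (95% confidence interval -0.82 to 0.019, adjusted p = 0.19), and -0.26 (adjusted p = 0.25) without lentivirus-circCSPP1 replicate 1.

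IFIH1 encodes MDA5, the receptor for long double-stranded RNA, and lies on chromosome 2 from 162267079 to 162318703 on the minus strand. It measured 4.65, 5.77 and 4.81 FPKM with lentivirus-NC and 3.37, 4.26 and 4.82 with lentivirus-circCSPP1. Its highest lentivirus-circCSPP1 library was just above the 2 lower lentivirus-NC libraries, so the groups overlapped. Its log2 fold change was -0.24 (95% confidence interval -0.58 to 0.092, adjusted p = 0.31). It came to -0.13 (adjusted p = 0.42) without lentivirus-circCSPP1 replicate 1 and to -0.16 (adjusted p = 0.63) without lentivirus-NC replicate 2.

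DHX58, the gene of LGP2 on chromosome 17 from 42101404 to 42112733 on the minus strand, measured 7.6, 6.77 and 7.49 FPKM with lentivirus-NC and 6.6, 5.45 and 4.74 with lentivirus-circCSPP1. Every lentivirus-circCSPP1 library was below all 3 lentivirus-NC libraries, by a small margin for replicate 1. Its log2 fold change was -0.34 (95% confidence interval -0.65 to -0.026), and its adjusted p was 0.15. This became -0.44 (adjusted p = 0.02) when lentivirus-circCSPP1 replicate 1 was left out.

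TLR3, the endosomal receptor, lies on chromosome 4 from 186069152 to 186088069 on the plus strand. It measured 0.69, 0.58 and 0.55 FPKM with lentivirus-NC and 0.39, 0.38 and 0.85 with lentivirus-circCSPP1. The lentivirus-circCSPP1 group held both the lowest values and the highest. On a transcript of 6015 nt these values correspond to roughly 76 to 148 fragments per library, the fewest of any member. TICAM1, the adaptor of TLR3, measured 24.3 ± 1.30 FPKM with lentivirus-NC and 30.4 ± 6.15 with lentivirus-circCSPP1 (SD, n = 3), with an adjusted p of 0.23 in limma and groups that did not overlap; it was named after its values were seen.

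MAVS, the adaptor shared by RIG-I and MDA5, lies on chromosome 20 from 3846799 to 3876123 on the plus strand. It measured 11.38, 12.91 and 12.94 FPKM with lentivirus-NC and 13.61, 14.1 and 14.06 with lentivirus-circCSPP1. The groups did not overlap, yet they differed by little. For MAVS the log2 fold change was 0.16 (95% confidence interval -0.076 to 0.39, adjusted p = 0.35), and 0.10 (adjusted p = 0.71) without lentivirus-NC replicate 1.

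TRIM25 lies on chromosome 17 from 56836387 to 56914080 on the minus strand. It measured 53.62, 54.98 and 52.75 FPKM with lentivirus-NC, and 94.39, 97.92 and 93.6 with lentivirus-circCSPP1. This gives means of 53.8 ± 1.12 and 95.3 ± 2.30 FPKM (SD, n = 3). The 2 groups were far apart and tight within themselves, and replicate 1 of lentivirus-circCSPP1 lay between the other two here. The rise was 0.81 on the log2 scale (standard error 0.073, 95% confidence interval 0.64 to 0.99), at an adjusted p of 0.0021 in limma. By p it ranked 40 of the 12322 tested genes, and by the size of the rise 149. An exact permutation test of 3 libraries against 3 cannot give a two-sided p below 0.10, which TRIM25 reached. It passed an adjusted p of 0.05 under all 17 alternatives run, with a log2 fold change of 0.78 to 0.86 and an adjusted p of 0.00028 to 0.021.

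The exons of TRIM25 hold the miRNA gene MIR3614 on the same strand and overlap an antisense RNA on the other by 538 of 5734 exonic nt, and the FPKM does not separate them. The 3 genes on each side of TRIM25 in the order of starts on chromosome 17 were looked at after its values were seen. The spans of C17orf67 and DGKE overlap that of TRIM25. C17orf67, DGKE, COIL, SCPEP1 and AKAP1 had log2 fold changes of 0.031, 0.07, -0.12, -0.09 and 0.27 and adjusted p of 0.46 to 0.90. NOG, a BMP antagonist and the third gene on the side of the lower coordinates, measured 0.933 ± 0.198 FPKM with lentivirus-NC and 2.07 ± 0.392 with lentivirus-circCSPP1 (SD, n = 3), which is 0.67 on the log2 scale (adjusted p = 0.024). Its lentivirus-NC mean is below the filter of 1 FPKM. NOG was therefore tested only through its higher values with lentivirus-circCSPP1.

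Across the 6 libraries, the genes whose values were most like those of TRIM25 among 9647 with a mean of at least 5 FPKM were CDCP1, a transmembrane glycoprotein of epithelial cells, IL24, a cytokine of the IL10 family, and STC2, a secreted glycoprotein. Each had a Pearson correlation of 0.999 with it over 6 libraries. All 3 followed the split between the groups, as did many genes: 348 had a correlation above 0.95. With 2 groups of 3 libraries such a value says little beyond that split.

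**Figure D2:**
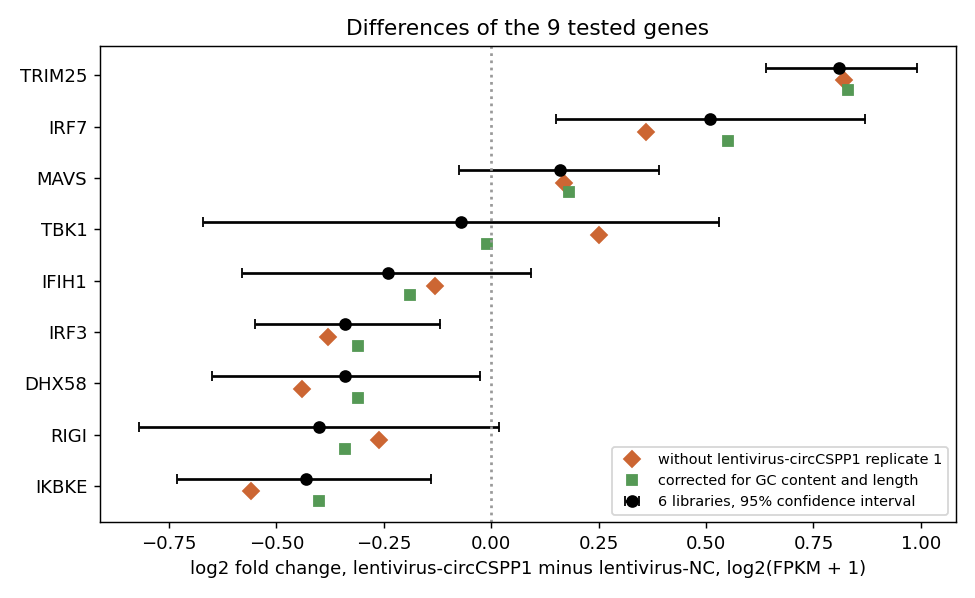
Log2 fold changes on log2(FPKM + 1) of the 9 tested genes, with the 95% confidence interval from limma on all 6 libraries (black), the value without lentivirus-circCSPP1 replicate 1 (diamonds) and the value after correction of each library for GC content and length (squares). TRIM25 lies at 0.81, 0.82 and 0.83, and TBK1 moves from -0.071 to 0.25 without replicate 1.

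TBK1, the kinase expressed in most cells that phosphorylates IRF3, lies on chromosome 12 from 64451880 to 64502108 on the plus strand. It measured 16.17, 14.28 and 16.03 FPKM with lentivirus-NC and 9.01, 19.09 and 18.17 with lentivirus-circCSPP1. Replicate 1 of lentivirus-circCSPP1 was the lowest of the 6 libraries and replicates 2 and 3 were the highest. For TBK1 the log2 fold change was -0.071 (95% confidence interval -0.67 to 0.53, adjusted p = 0.89), and without replicate 1 it turned to 0.25 (adjusted p = 0.064). The transcript has a GC content of 39.3%, and an antisense RNA overlaps 308 of its 3256 exonic nt.

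IKBKE, the related kinase that is better known as inducible and as a breast cancer oncogene, lies on chromosome 1 from 206470476 to 206496889 on the plus strand. It measured 25.12, 26.51 and 25.59 FPKM with lentivirus-NC and 22.55, 17.25 and 17.02 with lentivirus-circCSPP1. The second group lay lower throughout, replicate 1 least so. The log2 fold change was -0.43 (95% confidence interval -0.73 to -0.14) with an adjusted p of 0.067. Without replicate 1 it was -0.56 (adjusted p = 0.0032). An antisense RNA overlaps 156 of its 3362 exonic nt.

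IRF3, which is present before any infection and waits in the cytoplasm to be phosphorylated, lies on chromosome 19 from 49659569 to 49665875 on the minus strand. It measured 42.31, 46 and 43.33 FPKM with lentivirus-NC and 36.41, 31.7 and 35.49 with lentivirus-circCSPP1. The groups did not overlap. The log2 fold change was -0.34 (95% confidence interval -0.55 to -0.12) with an adjusted p of 0.056, and -0.38 (adjusted p = 0.016) without lentivirus-circCSPP1 replicate 1. Its exons overlap those of BCL2L12 on the opposite strand by 482 of 2394 nt, and the sources used here do not say whether counting used the strand. BCL2L12 measured 34.3 ± 2.47 FPKM with lentivirus-NC and 31.5 ± 2.19 with lentivirus-circCSPP1 (SD, n = 3).

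IRF7, the interferon-inducible factor that amplifies the response, lies on chromosome 11 from 612553 to 615999 on the minus strand. It measured 11.48, 10.58 and 12.52 FPKM with lentivirus-NC and 20.87, 13.98 and 16.2 with lentivirus-circCSPP1. The second group lay higher throughout, with replicate 1 the highest. The log2 fold change was 0.51 (95% confidence interval 0.15 to 0.87) with an adjusted p of 0.076. Without replicate 1 the log2 fold change fell to 0.36, while its adjusted p was 0.044. Without lentivirus-circCSPP1 replicate 2 it was 0.63, with an adjusted p of 0.044 as well. In that fit TRIM25 and IRF7 were the 2 members called, and 9.41% of all tested genes were.

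The members differed in how far lentivirus-circCSPP1 replicate 1 lay from replicates 2 and 3, and the order largely followed their GC content. On log2(FPKM + 1) replicate 1 was lower by the most in TBK1 (-0.97), then in RIGI (-0.43), IFIH1 (-0.34) and TLR3 (-0.20), whose transcripts have a GC content of 37.6% to 43.3%. In TRIM25 (-0.02) and MAVS (-0.046), with 51.1% and 52.1%, it differed by almost nothing. In IRF3 (0.12), DHX58 (0.32), IKBKE (0.38) and IRF7 (0.45), with 58.2% to 66.8%, it was higher. Over the 10 members, which share these 3 libraries, Pearson's r was 0.86 and Spearman's rho 0.88. The part of GC content in the results of single members was not tested beyond 2 recomputations. Without this replicate, and likewise after each library had been corrected for GC content and length, an adjusted p under 0.05 was reached by TRIM25, IRF7, IRF3, IKBKE and DHX58, 2 higher and 3 lower. The share of all tested genes called rose at the same time to 28.5% and 28.6%. RIGI, IFIH1, MAVS and TBK1 passed under neither.

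**Figure D3:**
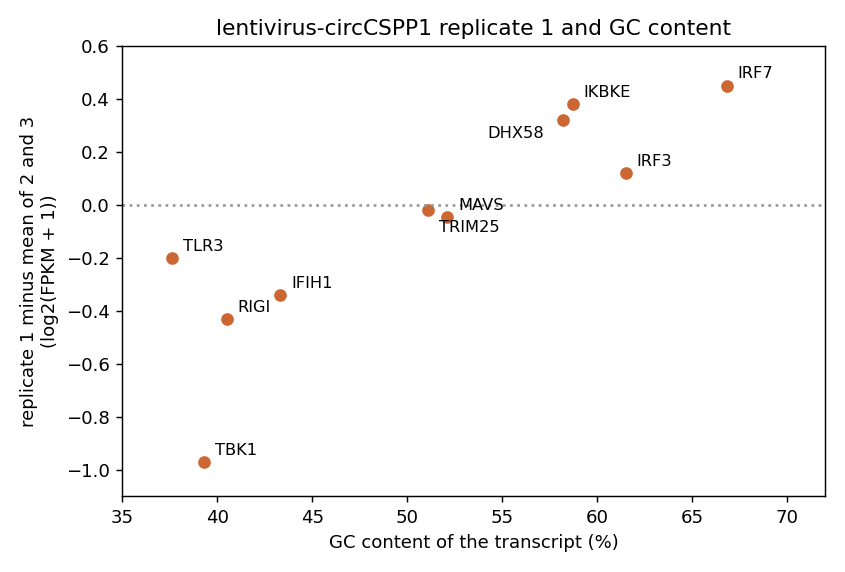
Difference of lentivirus-circCSPP1 replicate 1 from the mean of replicates 2 and 3, on log2(FPKM + 1), against the GC content (%) of the longest protein-coding transcript in GENCODE release 29, with 1 point for each of the 10 genes. TBK1 lies lowest at -0.97 and IRF7 highest at 0.45, while TRIM25 and MAVS lie near 0.

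In lentivirus-NC the members ranked from TRIM25 (53.8 FPKM) through IRF3 (43.9), IKBKE (25.7), TBK1 (15.5), MAVS (12.4), IRF7 (11.5), DHX58 (7.29), RIGI (6.40) and IFIH1 (5.08) to TLR3 (0.607). The cytosolic receptors were thus lower than the adaptor, the kinases and the transcription factors. Neighbours whose libraries overlapped were MAVS with IRF7, DHX58 with RIGI, and RIGI with IFIH1. In lentivirus-circCSPP1 the order was TRIM25 (95.3 FPKM), IRF3 (34.5), IKBKE (18.9), IRF7 (17), TBK1 (15.4), MAVS (13.9), DHX58 (5.60), RIGI (4.66), IFIH1 (4.15) and TLR3 (0.540). Here the neighbours that overlapped were IKBKE with IRF7, IRF7 with TBK1, TBK1 with MAVS, DHX58 with RIGI, and RIGI with IFIH1. IRF7 had moved past TBK1 and MAVS in the order of means, without being separable from its neighbours. Its place above TBK1 rested on lentivirus-circCSPP1 replicate 1, with 20.87 FPKM for IRF7 and 9.01 for TBK1. In replicates 2 and 3 of that group TBK1 (19.09 and 18.17) was above IRF7 (13.98 and 16.2) and IKBKE (17.25 and 17.02).

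Ratios within a library do not depend on the scaling of that library, but they can still carry its shift with GC content. TRIM25 was 7.44, 8.36 and 9.77 times the FPKM of RIGI in lentivirus-NC, and 26.4, 22.2 and 15.6 times in lentivirus-circCSPP1. The ratio of TRIM25 to MAVS was 4.71, 4.26 and 4.08 in lentivirus-NC and 6.94, 6.94 and 6.66 in lentivirus-circCSPP1. The ratio of IRF7 to IRF3 was 0.271, 0.23 and 0.289 in lentivirus-NC and 0.573, 0.441 and 0.456 in lentivirus-circCSPP1. Each of these 3 ratios was higher in every lentivirus-circCSPP1 library, at the smallest p that an exact two-sided permutation test allows here, 0.1 (0.2 adjusted over the 6 ratios). With all 6 libraries, the ratio of the kinases IKBKE and TBK1 did not separate the groups. It was 1.55, 1.86 and 1.6 in lentivirus-NC and 2.5, 0.904 and 0.937 in lentivirus-circCSPP1 (exact permutation p = 0.4). Replicate 1 of the latter was above all others, and replicates 2 and 3 were below every lentivirus-NC library. The transcripts of IKBKE and TBK1 have a GC content of 58.7% and 39.3%, and the part of GC content in this ratio was not tested. The ratio of RIGI to IFIH1, 1.12 to 1.55 in lentivirus-NC, overlapped with the 1.04 to 1.24 of lentivirus-circCSPP1 (exact permutation p = 0.5). The ratio of DHX58 to IFIH1 overlapped as well (exact permutation p = 0.9). In all 6 ratios were computed, and with a smallest p of 0.1 none of them can pass an adjusted p of 0.05.

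**Figure D4:**
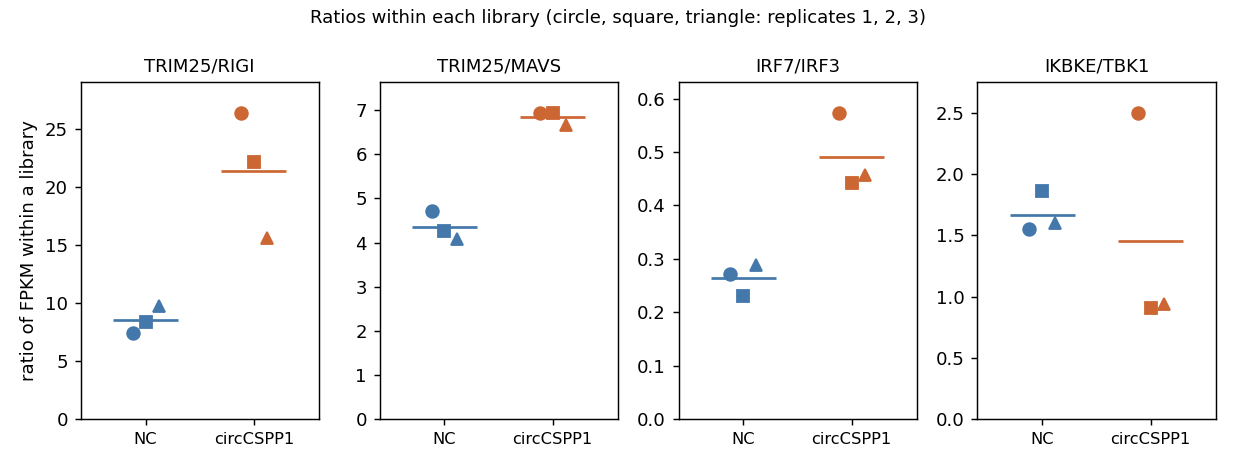
Ratio of the FPKM of 2 genes within each library for lentivirus-NC and lentivirus-circCSPP1 (linear axes from 0); circles, squares and triangles are replicates 1, 2 and 3, and bars are group means. TRIM25/RIGI, TRIM25/MAVS and IRF7/IRF3 are higher in every lentivirus-circCSPP1 library, and IKBKE/TBK1 overlaps through lentivirus-circCSPP1 replicate 1 alone.

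The rest of the pathway was described with 5 lists of 167 genes in all. The list of other nucleic acid sensors and their cofactors had 34 genes, of which 27 were tested. Of these, 5 fell and 1 rose at an adjusted p of 0.05, which is 22.2% beside 11.4% of all tested genes, and the median log2 fold change was -0.16. Called lower were 18.5% of the list beside 6.66% of all tested genes, and called higher 3.70% beside 4.69%. This list and that of the interferon-stimulated genes below are not independent, since both hold IFIT genes. OASL, a relative of the 2-5A synthetases that enhances RIG-I signalling, fell from 35.1 ± 2.99 to 16.3 ± 2.61 FPKM (mean ± SD, n = 3), which is -1.07 on the log2 scale. IFIT1, which binds RNA lacking a methylated cap, fell from 11.8 ± 0.263 to 5.58 ± 0.437 FPKM, and DDX60, a helicase proposed to aid RIG-I, from 7.34 ± 0.505 to 3.96 ± 0.973 FPKM. ZC3HAV1, the zinc-finger antiviral protein that binds CpG-rich viral RNA, had a log2 fold change of -0.58 and DHX9, a nuclear helicase that resolves double-stranded RNA, of -0.54. ZCCHC3, a cofactor of RIG-I and MDA5, rose from 8.61 ± 0.310 to 12.2 ± 0.808 FPKM. The adjusted p of these 6 genes ran from 0.0035 to 0.033 in limma. Without lentivirus-circCSPP1 replicate 1 there were 7 lower and 3 higher genes in this list (37.0%, beside 28.5% of all tested genes), and the median was -0.024. Without lentivirus-NC replicate 1, 2 or 3 or lentivirus-circCSPP1 replicate 3, 2 were called in each fit. In these fits, in the same order, 300, 317, 407 and 450 of all 12322 tested genes were called.

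Other receptors of the endosome were not seen at these depths or barely so: TLR8 was listed at 0 in all libraries, TLR7 reached at most 0.02 FPKM and TLR9 at most 0.05 FPKM. The DNA sensor CGAS measured 6.80 ± 0.388 FPKM with lentivirus-NC and 8.21 ± 2.54 with lentivirus-circCSPP1 (SD, n = 3), with overlapping groups. Its adaptor STING1 measured 37.61, 46.25 and 35.6 FPKM with lentivirus-NC and 32.58, 20.77 and 31 with lentivirus-circCSPP1, all lower, with an adjusted p of 0.12. They were chosen once the values had been seen.

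Of 37 adaptors, ubiquitin ligases and kinases that work with the members, 35 were tested, and 1 rose and 1 fell, a share of 5.71% that lies below the 11.4% of all tested genes. TRIM56, a ubiquitin ligase related to TRIM25 in structure, rose from 36.5 ± 1.08 to 45.6 ± 0.983 FPKM (mean ± SD, n = 3), which is 0.31 on the log2 scale (adjusted p = 0.046). TRAF5, an adaptor of the TRAF family, fell from 6.84 ± 0.180 to 4.4 ± 0.286 FPKM, which is -0.54 on the log2 scale (adjusted p = 0.019). RNF135, the ubiquitin ligase also called Riplet that acts on RIG-I beside TRIM25, measured 13.1 ± 1.07 and 16.2 ± 2.28 FPKM (adjusted p = 0.20) and was named after its values were seen. The same holds for TRAF3, the ligase between MAVS and TBK1, which was spread widely in both groups. It measured 12.48, 11.31 and 19.8 FPKM with lentivirus-NC and 15.9, 33.65 and 39.93 with lentivirus-circCSPP1. The log2 fold change of TRAF3 was 0.93 (adjusted p = 0.13 in limma). The groups overlapped through lentivirus-circCSPP1 replicate 1, while replicates 2 and 3 were above every lentivirus-NC library. The median of this list was 0.079. Without lentivirus-circCSPP1 replicate 1 it held 4 higher and 3 lower genes (7 of 35, beside 28.5% of all tested genes), and 0 were called in limma without lentivirus-NC replicate 1, 2 or 3 or lentivirus-circCSPP1 replicate 3. The latter fits called 300 to 450 of all 12322 tested genes. With all 6 libraries, 5 were higher and 3 lower at an unadjusted p under 0.05, or 22.9% beside 28.2%.

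All 39 inhibitors of the pathway were tested. Of them 30 had a log2 fold change above 0, and the share of all tested genes above 0 was not counted. The median was 0.10, beside -0.028 for all tested genes. In limma 3 rose and 0 fell at an adjusted p of 0.05 (9 and 0 at an unadjusted p under 0.05). These shares, 7.69% and 23.1%, were below the 11.4% and 28.2% of all tested genes in either direction. Called higher alone were 7.69% of the list and 4.69% of all tested genes. RBCK1 (HOIL-1), a subunit of the linear ubiquitin ligase reported to restrain TRIM25 and RIG-I, rose from 75.6 ± 1.09 to 117.1 ± 19.7 FPKM (mean ± SD, n = 3), with 139.6 FPKM in lentivirus-circCSPP1 replicate 1. SMURF2, a ubiquitin ligase, rose from 18.7 ± 0.327 to 29.2 ± 4 FPKM, and TRIM27, a ligase reported to act on TBK1, from 53.6 ± 2.23 to 76.5 ± 4.64 FPKM. Without lentivirus-circCSPP1 replicate 1, 10 were called higher and 1 lower, and their share of 28.2% was close to the 28.5% of all tested genes. Called higher in that fit were 25.6% of the list and 13.2% of all tested genes. After the correction for GC content and length these shares were 30.8% and 14.7%. With any 1 lentivirus-NC library left out 0 of the 39 were called, and without lentivirus-circCSPP1 replicate 3 there was 1. Of all 12322 tested genes, 300 to 450 were called in these fits.

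Interferon genes themselves were at or near 0: IFNB1 reached at most 0.10 FPKM, IFNL1 at most 0.27 FPKM, and IFNL2 and IFNL3 were listed at 0. Of the 25 interferons, interferon receptors and transcription factors, 18 were tested, and 3 rose and 1 fell (22.2%, beside 11.4% of all tested genes). STAT2, a subunit of the factor that carries the type I interferon signal to the nucleus, fell from 26.9 ± 1.88 to 15.2 ± 0.272 FPKM (mean ± SD, n = 3), which is -0.79 on the log2 scale (adjusted p = 0.0047). RELA, the NF-κB subunit that acts with IRF3 on the IFNB1 enhancer, rose from 76.5 ± 5.54 to 113.2 ± 5.92 FPKM, which is 0.56 on the log2 scale (adjusted p = 0.010). CREBBP, the coactivator that phosphorylated IRF3 binds, rose from 30.3 ± 0.692 to 41.7 ± 3.28 FPKM, and IRF1 from 22.6 ± 2.74 to 32.6 ± 3.24 FPKM. The median of the 18 was -0.07. Without lentivirus-circCSPP1 replicate 1 it was -0.014, and 4 rose and 3 fell (38.9%, beside 28.5% of all tested genes), while 2 were called without lentivirus-NC replicate 1 or lentivirus-circCSPP1 replicate 3, and 1 without lentivirus-NC replicate 2 or 3. The latter fits called 300 to 450 of all 12322 tested genes.

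Interferon-stimulated genes, which lie at the output of the pathway, were lower more often than higher. Of 32, 22 were tested, and 20 of them had a log2 fold change below 0. The median was -0.33, beside -0.028 for all tested genes, whose share below 0 was not counted. In limma 7 fell and 0 rose at an adjusted p of 0.05 (8 and 0 at an unadjusted p under 0.05). The 7 are 31.8% of the list, beside 6.66% of all tested genes called lower, and the 8 are 36.4%, beside 28.2% in either direction. IFIT3 fell from 25.3 ± 1.75 to 12.1 ± 1.54 FPKM and IFIT2 from 14.5 ± 0.313 to 7.67 ± 0.809 FPKM (mean ± SD, n = 3). IFITM1, IFITM2 and IFITM3, membrane proteins that block viral entry, had log2 fold changes of -1.24, -0.95 and -1.26, which are uncertain singly because these genes are close copies whose fragments the counting could have split. IFITM1 averaged 2.87 FPKM with lentivirus-NC and 0.703 with lentivirus-circCSPP1. It thus passed the filter of 1 FPKM only through its lentivirus-NC values, and it counts among the 7. Without lentivirus-circCSPP1 replicate 1, 11 fell and 0 rose, which is 11 of 22 beside 15.3% of all tested genes called lower in that fit, and the median was -0.39. Without lentivirus-NC replicate 1, 2 or 3 or lentivirus-circCSPP1 replicate 3, 2 were called in each fit. Of all 12322 tested genes, these fits called 300, 317, 407 and 450 in the same order. Among the members known to be inducible by interferon, DHX58, IFIH1 and RIGI had log2 fold changes of -0.34, -0.24 and -0.40, none of them called, IRF7 one of 0.51, also not called, and TRIM25 the called rise of 0.81, opposite in direction to the genes of this list that fell.

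**Figure D5:**
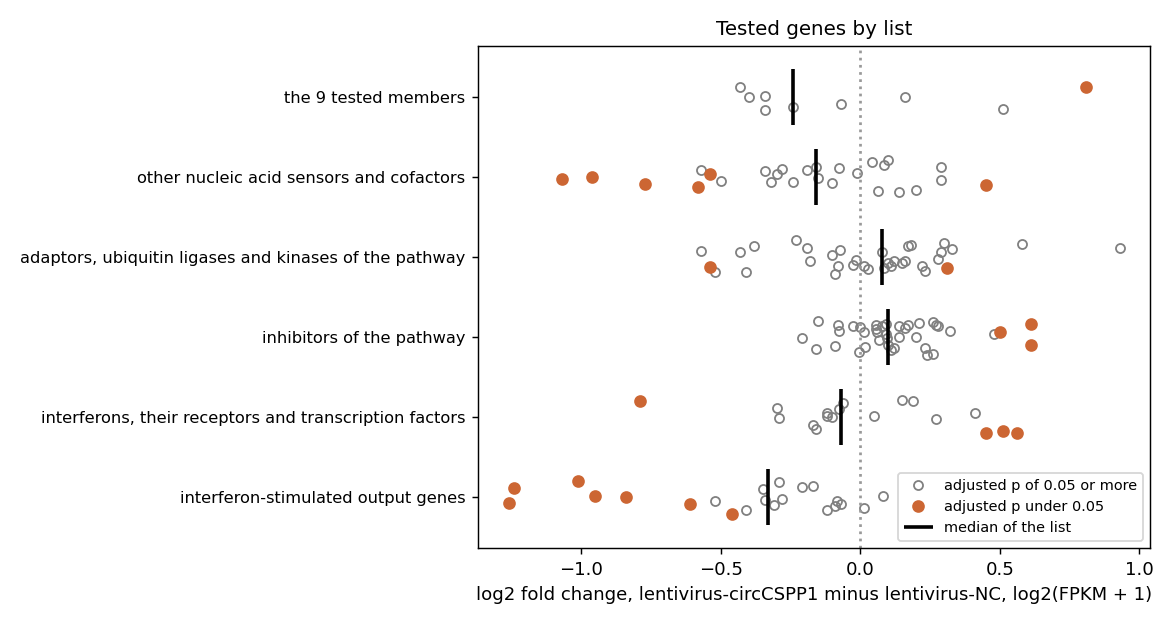
Log2 fold change on log2(FPKM + 1), lentivirus-circCSPP1 minus lentivirus-NC, of every tested gene of the members and of the 5 other lists; filled points have an adjusted p under 0.05, open points do not, and the black bar is the median of the list. The medians run from -0.33 for the interferon-stimulated genes to 0.10 for the inhibitors, and TRIM25 is the filled point of the members at 0.81.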

How the data were processed

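The authors sequenced poly(A) RNA in paired-end mode and deposited 1 table of FPKM, rounded to 2 decimals, for 19727 genes in 6 libraries. The submitters' processing notes name the build hg38, and the aligner, the FPKM program and the annotation are not given in the sources used here. Because FPKM hold no read counts, a linear model was used: log2(FPKM + 1) of genes with a mean of 1 FPKM or more went into limma 3.58.1 (R 4.3.3), two-sided and with a trend in eBayes but no covariates. The fit was also run on simulated data, which held no shift with GC content and only differences larger than those of the members. That run therefore says nothing about small differences or such shifts in these libraries. The 2-sample test of the study's methods was run as the alternative without moderation.

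Depth was estimated from low FPKM of single-transcript genes under 800 nt, with a tolerance of 0.15 around whole fragments. Coordinates, lengths and GC content came from GENCODE release 29 (GRCh38), and promoters from RefSeq. Protein sequences were not analysed here, and a search for miRNA seed matches and 2 cell line markers are not reported here.

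The members and lists were chosen with earlier results of these data known, and the lists were written from general knowledge. Named by rule were the members, CSPP1, up to 5 called genes per list and direction, and the 3 genes most like a called member. Alternatives covered pseudocounts, filters, scalings, variance models, a replicate block and each library left out. A spline correction for GC content and length was added after seeing the data.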

Additional observations from a re-analysis of the deposited data

How the results depend on the processing

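The direction of all 9 tested members was kept under every alternative run, except that of TBK1, whose log2 fold change was -0.25 to 0.25 with 1 library left out and 0.25 without lentivirus-circCSPP1 replicate 1. IFIH1 could not be tested with a mean of at least 5 FPKM. TRIM25 kept its call throughout. The cause of the other changes was not tested. With 1 library left out, the number of members called lay between 1 and 5, with 5 after the GC content and length correction and 2 without lentivirus-circCSPP1 replicate 2. The number of all genes called lay between 300 and 3512 with 1 library left out, and was 834 without moderation and 3516 after the correction; genes past both thresholds of the study numbered 24 to 28 with 1 library left out, 66 with a pseudocount of 0.1 and 75 with 0.01. The numbers called in the lists, with 1 library left out, lay between 2 and 10 for the other sensors, 0 and 7 for the adaptors, ubiquitin ligases and kinases, 0 and 11 for the inhibitors, 1 and 7 for the interferons, receptors and factors, and 2 and 11 for the interferon-stimulated genes. After the GC content and length correction they were 10, 10 and 12 for the sensors, adaptors and inhibitors. Without moderation they were 1 for the inhibitors and 2 for the interferon-stimulated genes, and 1 for the adaptors with quantile normalization. For CSPP1 the difference on the log2 scale was 0.94 (adjusted p = 0.077) without moderation and 0.82 to 1.13 (adjusted p 0.0010 to 0.075) with 1 library left out.

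The submitters describe the samples as paired without saying what pairs them, and replicate numbers were not used as pairs: the deviations of same-numbered libraries from their group means had correlations of 0.0734, 0.00653 and 0.0572. With the replicate block, 923 genes were called, and 1 of the adaptors, 2 of the interferons, receptors and factors, and 4 of the interferon-stimulated genes; lentivirus-circCSPP1 replicates 2 and 3 both correlated best with lentivirus-NC replicate 3. Depth limits TLR3 most among the members.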
